A study of Homo sapiens with 6 samples.

Results

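Phosphoglycerate kinase 1 (PGK1) and the enzymes directly around it in glycolysis were followed at the mRNA level in HT1080 cells, a human fibrosarcoma line. The 5 genes are PGK1, GAPDH, PGAM1, BPGM and TPI1, chosen by symbol from a table of 21619 entries as the overexpressed enzyme and its neighbours in the pathway. All 5 were found, each with a row of counts, and all 5 passed the filter on low counts that left 14322 entries. PolyA RNA was sequenced from 3 libraries of cells labelled wild type (WT) and 3 of cells labelled as overexpressing PGK1 (PGK1_OE), which the study describes as stable. Whether the WT cells carry an empty vector, what the introduced PGK1 construct contains and whether the overexpressing line is a clone is not stated in the labels. All 6 libraries carry the same batch label. Nothing shows that replicates were grown separately, so each p-value here reflects library-to-library spread that may be technical.

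Glycolysis splits a hexose into a pair of triose phosphates, and triosephosphate isomerase (TPI1) keeps these interconvertible. Glyceraldehyde-3-phosphate dehydrogenase (GAPDH) then oxidises the triose and makes bisphosphoglycerate with NADH. PGK1 passes its phosphate to ADP, the first ATP-forming step of the pathway, and phosphoglycerate mutase 1 (PGAM1) moves the remaining phosphate so that enolase can act. Bisphosphoglycerate mutase (BPGM) opens a side branch that bypasses PGK1 and is best known from red blood cells, where its product lowers the oxygen affinity of haemoglobin. Several of these genes are textbook targets of the hypoxia-inducible factors, which bind a short core motif, ACGTG or GCGTG.

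Sequence before a RefSeq start of PGK1 and GAPDH is shown because this core motif stands in the part of both that can be printed. Whether the motif has any relation to the changes below was not tested, and the PGK1 counts include the introduced copy. Each sequence is from RefSeq on GRCh38.p14, plus strand. It is the part of the 250 bases before the RefSeq start that no GENCODE 29 exon covers. Both stretches lie inside the GENCODE span of their gene, which begins at 77910739 for PGK1 and at 6533927 for GAPDH. Which start the cells use was not tested, so neither stretch is shown to be the main promoter. Capitals mark ACGTG or GCGTG on either strand.
PGK1 (chrX:78103998-78104173): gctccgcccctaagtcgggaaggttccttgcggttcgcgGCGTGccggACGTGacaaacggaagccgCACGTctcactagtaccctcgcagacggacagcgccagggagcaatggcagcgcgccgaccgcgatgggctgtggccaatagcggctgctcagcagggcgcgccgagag
GAPDH (chr12:6535142-6535263): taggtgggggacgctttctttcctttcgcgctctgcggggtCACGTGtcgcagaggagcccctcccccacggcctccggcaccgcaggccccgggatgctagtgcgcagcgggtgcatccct

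Over the whole 250 bases, PGK1 held 2 matches to ACGTG and 1 to GCGTG. GAPDH held 2 matches to ACGTG, which are the strands of a single palindrome, CACGTG. BPGM held 1 match to ACGTG, and neither motif was found in the windows of PGAM1 and TPI1. Of 35116 human windows of this length, 18.5% held ACGTG on either strand, 32.2% held GCGTG and 6.3% held CACGTG. The GC-rich motif GGGCGG, found in 42.6% of windows, occurred 5 times in the TPI1 window and 3 times in that of PGK1. It occurred 2 times in that of GAPDH and 1 time in that of PGAM1, and not in that of BPGM. The windows of PGAM1 and TPI1 lie wholly inside annotated exons and are not printed. They also begin inside the GENCODE span of their gene. The PGAM1 window begins at 97427568 and the gene at 97426160, the TPI1 window at 6867281 and the gene at 6867119. What these windows hold or lack therefore does not describe the sequence before the first annotated start. These matches describe letters only, and binding was not measured.

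All 5 mRNAs were higher in PGK1_OE than in WT, by 24.2-fold for PGK1, 3.85-fold for PGAM1, 2.99-fold for TPI1, 1.69-fold for GAPDH and 1.30-fold for BPGM. For each of the 5, the lowest PGK1_OE library lay above the highest WT library. Each passed edgeR's quasi-likelihood test at an adjusted p under 0.05, after Benjamini-Hochberg adjustment across the 14322 entries. Of these entries 71.2% were called, 35.4% as higher and 35.8% as lower. The groups did not overlap in 76.4%, and in 37.9% they did not overlap with PGK1_OE the higher. Calls are therefore frequent in this comparison, and a count of 5 among 5 is not in itself particular to these genes. The median log2 fold change of the 5 was 1.58, against -0.02 over all entries tested. The 5 include PGK1, the overexpressed gene, whose counts include the introduced copy, so this median is not one of the neighbouring enzymes alone.

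**Figure D1:**
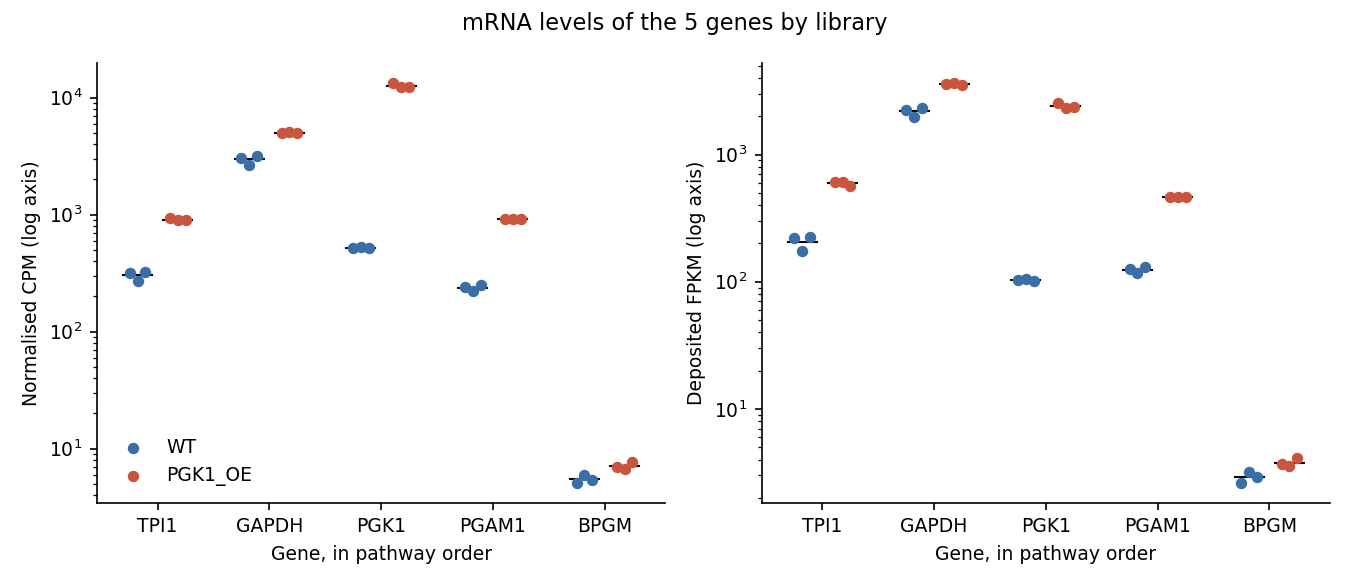
Levels of the 5 genes in each library, as normalised CPM (left) and as deposited FPKM (right), both on log axes. Each point is a library, blue for WT and red for PGK1_OE, and bars mark the mean of 3; no WT point reaches the PGK1_OE points of the same gene, and the gap is widest for PGK1 and narrowest for BPGM.

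PGK1 (ENSG00000102144) is annotated in GENCODE 29 (GRCh38) at 77910739 to 78129296 of chromosome X, plus strand. Levels are given as scaled CPM, that is, counts divided by library size after edgeR's TMM scaling of that size. They compare a gene between libraries but not genes of unequal length. PGK1 stood at 522, 527 and 519 CPM in WT replicates 1, 2 and 3 and at 13334, 12216 and 12412 CPM in PGK1_OE replicates 1, 2 and 3. The 3 WT values were close together, with a coefficient of variation of 0.770%, and the PGK1_OE values varied by 4.72%, with replicate 1 the highest. The change was 4.60 on the log2 scale, with an SE of 0.04 and an edgeR adjusted p of 9.65e-14. It was the smallest adjusted p of all entries tested, and the fold change ranked 16 of 14322 in descending order.

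The counts do not separate transcripts of the introduced copy from those of the endogenous gene. Counts divided by FPKM and by library size give the length over which the authors' FPKM was spread. For PGK1 that length was 5.15 to 5.19 kb in every library, WT and PGK1_OE alike. The first GENCODE transcript of PGK1 has 4887 bases, of which 1251 are coding, so the length used was 4.13 times the coding length. The corresponding lengths were 1.37 to 1.39 kb for GAPDH, 1.93 to 1.94 kb for PGAM1, 1.45 to 1.58 kb for TPI1 and 1.85 to 1.96 kb for BPGM. The length of the introduced transcript, which the PGK1_OE cells alone carry, is not given. The fold change of PGK1, its ratios to other genes and its place among them are therefore differences in counts or in FPKM at this length, and not in numbers of mRNA molecules.

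TPI1 (ENSG00000111669, chromosome 12, 6867119 to 6870948, plus strand) acts just before GAPDH. Its level was 316, 271 and 320 CPM in the WT libraries and 933, 890 and 890 CPM in the PGK1_OE libraries. WT replicate 2 was the lowest library, and the groups were far apart. The change was 1.58 on the log2 scale, with an SE of 0.06 and an edgeR adjusted p of 1.28e-08. The last bases of TPI1 overlap SPSB2 on the opposite strand, and SPSB2 had 1725 counts over the 6 libraries against 31393 or more for TPI1 in each PGK1_OE library.

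GAPDH (ENSG00000111640, chromosome 12, 6533927 to 6538374, plus strand) supplies the substrate of PGK1. It stood at 3048, 2661 and 3166 CPM in the WT libraries and at 4981, 5105 and 4955 CPM in the PGK1_OE libraries. Again WT replicate 2 was the lowest, while the PGK1_OE values varied by 1.60%. The change was 0.76 on the log2 scale, with an SE of 0.06 and an edgeR adjusted p of 2.06e-06, and 18.1% of all entries tested had a larger positive change.

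PGAM1 (ENSG00000171314, chromosome 10, 97426160 to 97433441, plus strand) takes over the product of PGK1. Its level was 241, 220 and 249 CPM in the WT libraries and 915, 912 and 908 CPM in the PGK1_OE libraries. The PGK1_OE libraries agreed to within a coefficient of variation of 0.376%, the smallest of the 5 genes in either group, and WT replicate 2 was the lowest. The change was 1.95 on the log2 scale, with an SE of 0.05 and an edgeR adjusted p of 2.90e-11, a rise exceeded by 3.45% of all entries tested.

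BPGM (ENSG00000172331, chromosome 7, 134646808 to 134679813, plus strand) was the least abundant of the 5 genes and had the smallest change. It had 193, 211 and 197 counts in the WT libraries and 278, 266 and 271 counts in the PGK1_OE libraries. These counts correspond to 5.09, 5.97 and 5.38 CPM in WT and 6.95, 6.70 and 7.69 CPM in PGK1_OE, so the nearest libraries of the groups were less than 1 CPM apart. The change was 0.38 on the log2 scale, with an SE of 0.14 and an edgeR adjusted p of 0.0303. The call was lost without WT replicate 1 (edgeR adjusted p = 0.0913), WT replicate 3 (0.0703), PGK1_OE replicate 1 (0.0521) or PGK1_OE replicate 3 (0.1125). It was also lost when scaled to library totals alone (0.0546), and with scaling to 12 reference genes the log2 fold change was 0.08 (0.627). BPGM is thus the only one of the 5 whose difference did not stay past the threshold across the alternatives run.

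Within WT, replicate 2 held the lowest value of TPI1, GAPDH and PGAM1 and the highest of PGK1 and BPGM. On the log2 scale its deviation from the WT mean was -0.15 for TPI1, -0.15 for GAPDH and -0.10 for PGAM1, against 0.01 for PGK1 and 0.13 for BPGM. WT replicate 2 was also the lowest WT library for 12 of 18 other glycolysis genes tested. It was the lowest for 7 of 14 genes of branches at the triose and phosphoglycerate steps, and for 5 of 12 reference genes. The share over all entries is not given, so a low value is not shown to be particular to glycolysis. It had the fewest counts of the 6 libraries, 34425162 against 40538274 in the deepest. Whether depth has a part in these deviations was not tested. Without WT replicate 2 all 5 genes stayed higher in PGK1_OE, and each stayed past the threshold.

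Levels of different genes were compared only per length, as FPKM (fragments scaled by transcript length and library size), the authors' deposited values. In WT the order was GAPDH (2179 ± 177 FPKM, SD, n = 3), TPI1 (206 ± 26.4), PGAM1 (124 ± 6.81), PGK1 (103 ± 1.58) and BPGM (2.91 ± 0.284). No library of one gene crossed into the range of the next gene in this order. In PGK1_OE the order was GAPDH (3577 ± 67.7 FPKM), PGK1 (2410 ± 119), TPI1 (593 ± 25.4), PGAM1 (464 ± 3.95) and BPGM (3.78 ± 0.274), again without overlap between neighbours. In FPKM, PGK1 thus moved from the fourth place to the second. These places depend on the length used for FPKM, which was longer for PGK1 than for the other genes. Among all entries, its FPKM rank went from between 589 and 616 in WT to 3, 4 and 4 in PGK1_OE, while GAPDH was already between 5 and 9 in WT and stood at 2 in each PGK1_OE library.

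The balance between consecutive enzymes was read from the ratio of their FPKM values in each library. The ratio of PGK1 to GAPDH was 0.0457, 0.0528 and 0.0438 in WT and 0.7145, 0.639 and 0.669 with overexpression, 14.2-fold higher. The ratio of PGAM1 to PGK1 was 1.23, 1.12 and 1.28 in WT and 0.183, 0.199 and 0.195 in PGK1_OE. So the FPKM of PGAM1 went from slightly above that of PGK1 to well below it, although PGAM1 itself rose. This order depends on the lengths used for FPKM, 5.15 to 5.19 kb for PGK1 and 1.93 to 1.94 kb for PGAM1. It is not an order of mRNA molecules.

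The enzymes on either side of PGK1 also did not keep their proportions. The ratio of PGAM1 to GAPDH was 0.0571 ± 0.00158 in WT and 0.130 ± 0.00197 in PGK1_OE, 2.27-fold higher. That of TPI1 to GAPDH was 0.0944 ± 0.00500 in WT and 0.166 ± 0.00540 in PGK1_OE, 1.76-fold higher, and that of BPGM to PGAM1 was 0.0235 ± 0.00342 and 0.00816 ± 0.000657. For none of the 5 ratios did the groups overlap. The two-sided exact permutation test gave p = 0.10 for each, the smallest value that 3 against 3 libraries allow, and 0.10 after adjustment over the 5 ratios, so none can pass a threshold of 0.05.

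Of 5 paralogs, 3 were tested. PGK2, the testis form of phosphoglycerate kinase, and PGAM2, the muscle form of the mutase, had 0 counts in every library. GAPDHS, the sperm form of GAPDH, fell from 14.9 ± 0.842 to 5.02 ± 0.464 CPM (a log2 difference of -1.57 with an SE of 0.12 and an edgeR adjusted p of 2.58e-07), opposite to GAPDH. PGAM5, a mitochondrial phosphatase that shares the mutase fold, fell from 110 ± 4.70 to 87.5 ± 5.21 CPM, with a log2 difference of -0.33, an SE of 0.05 and an edgeR adjusted p of 1.36e-04.

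PGAM4, a retrogene copy of PGAM1, needs separate mention because it lies within the annotated span of PGK1, on the opposite strand. Its level was 0.911 ± 0.387 CPM in WT and 4.77 ± 0.540 CPM in PGK1_OE (2.38, SE 0.32, edgeR adjusted p = 3.68e-05). The GENCODE transcripts of PGAM1 and PGAM4 are 98.3% identical over 765 aligned bases, with 13 differing bases. PGAM4 counts were between 0.187% and 0.593% of PGAM1 counts in every library. How reads shared with PGAM1 were assigned, and whether counting used strand, is not given, so the PGAM4 value is uncertain and its part in the PGK1 locus was not tested. Adding its counts to PGAM1 left the PGAM1 log2 fold change at 1.95.

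The rest of the pathway was read from a list of 23 genes for sugar import, the other glycolytic steps, lactate dehydrogenase and lactate export. Of these, 18 were tested, and 11 were higher in PGK1_OE, 6 were lower and 1 did not pass. Over all entries tested, 35.4% were called higher and 35.8% lower. With scaling to reference genes 10 were higher and 8 lower. The median log2 fold change was 0.66, against -0.02 over all entries tested. The list was compiled with earlier results of these data known, and the genes of a step are not independent of each other.

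**Figure D2:**
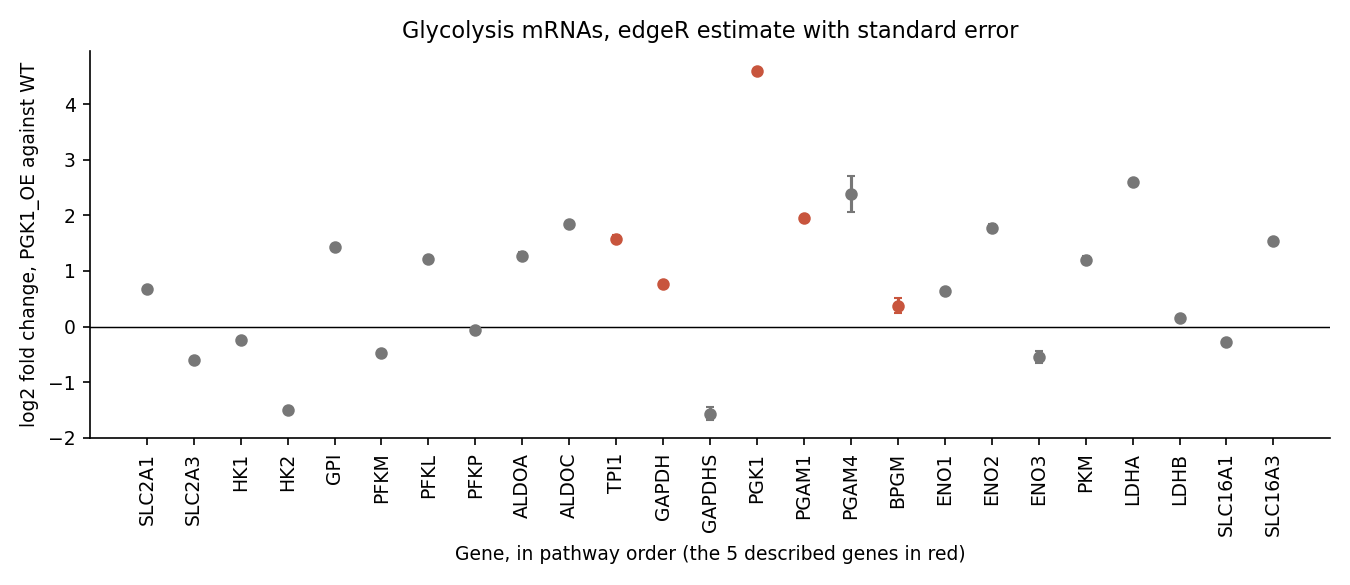
Log2 fold change of PGK1_OE against WT for the tested glycolysis genes and the paralogs GAPDHS and PGAM4 in pathway order, with edgeR standard errors. The 5 described genes, in red, all lie above 0, from 0.38 for BPGM to 4.60 for PGK1; genes of glucose entry lie on both sides of 0, with HK2 at -1.49.

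The steps before the triose phosphates moved unevenly. Among sugar importers and hexokinases, SLC2A1 was higher (log2 fold change 0.68), while SLC2A3 (-0.60), HK1 (-0.24) and HK2 (-1.49) were lower. Glucose-6-phosphate isomerase GPI (1.43) was higher, as was phosphofructokinase PFKL (1.22), whereas PFKM fell by 0.47 and PFKP did not pass (-0.06, edgeR adjusted p = 0.141), but was called lower with scaling to reference genes (-0.36). Aldolase makes the trioses on which TPI1 acts, and both expressed forms, ALDOA (1.28) and ALDOC (1.85), were higher.

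Below PGAM1 most genes were higher. Enolase ENO1 rose by 0.64 and ENO2 by 1.78 on the log2 scale, while ENO3 fell by 0.55. Pyruvate kinase PKM (1.19), lactate dehydrogenase LDHA (2.60) and the lactate exporter SLC16A3 (1.54) were higher, and SLC16A1 (-0.27) was lower. LDHB was slightly higher (0.16) but was lower with scaling to reference genes (-0.13). Of the genes named, PFKM, ENO3 and SLC16A3 overlap another gene of the tables on the opposite strand, and GPI, ALDOA, ALDOC, ENO2 and LDHB one on the same strand, so their values are uncertain. Over the 6 libraries the other gene had 179979 counts against 2438 for ENO3, 37450 against 46615 for SLC16A3 and 9145 against 31256 for PFKM. It had 1819 against 186129 for ALDOA, 1155 against 20731 for ENO2, and 27 or fewer for ALDOC, LDHB and GPI.

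Summed over the isozymes of a step, FPKM differed between groups without overlap at 11 of 12 steps, where 76.4% of all single entries tested did not overlap in CPM. Phosphoglycerate kinase rose 23.4-fold in sum, from rank 10 of the 12 steps in WT to rank 3 in PGK1_OE. The mutase step stood at 124 ± 6.81 FPKM in WT and 464 ± 3.95 in PGK1_OE (3.73-fold), the largest ratio after that of phosphoglycerate kinase. The isomerase TPI1 followed with a ratio of 2.88 and lactate dehydrogenase with 2.79. GAPDH was the most abundant step in both groups, with a ratio of 1.64. The hexokinase sum was lower in PGK1_OE, with a ratio of 0.738, and that of phosphofructokinase, at 0.987, overlapped between groups.

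**Figure D3:**
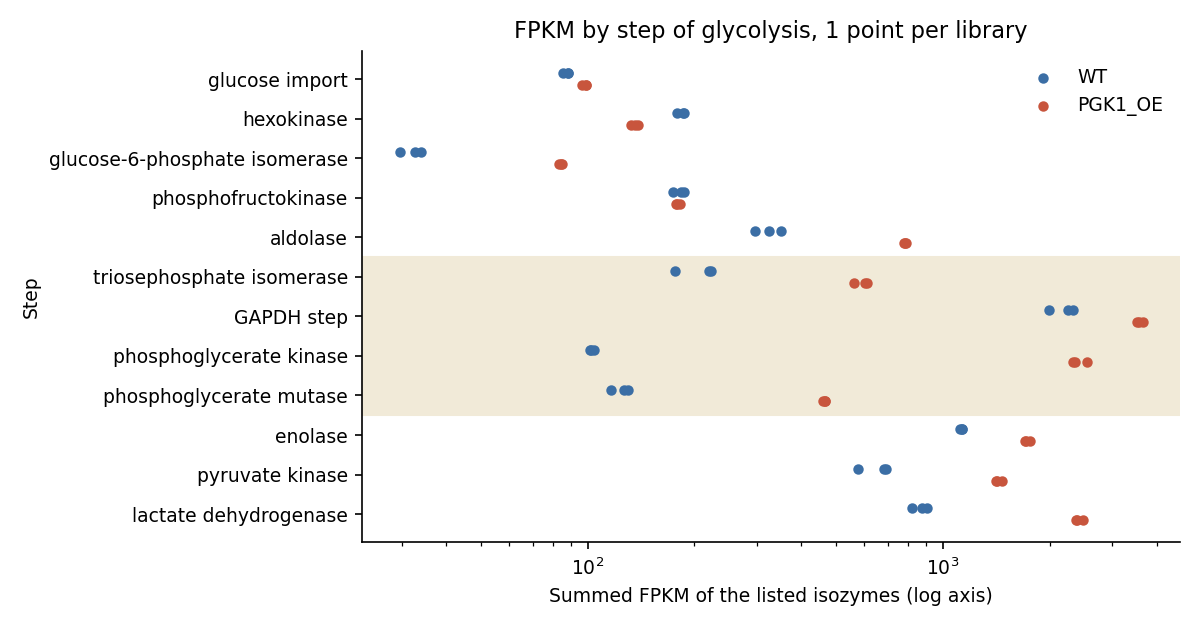
Summed FPKM of the listed isozymes at each of 12 steps, on a log axis, with 1 point per library (blue WT, red PGK1_OE) and the steps of TPI1, GAPDH, PGK1 and PGAM1 shaded. The phosphoglycerate kinase points move from the lowest of the shaded steps in WT to 2333 or more in PGK1_OE, and phosphofructokinase points overlap.

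Genes of the branches that enter or leave at the triose and phosphoglycerate steps numbered 14. Of these, 7 were higher, 5 were lower and 2 did not pass, where 35.4% of all entries tested were higher and 35.8% lower. With scaling to reference genes 3 were higher, 6 were lower and 5 did not pass. PHGDH and PSAT1, which draw phosphoglycerate into serine synthesis, were lower, at -1.85 and -2.14 on the log2 scale. PSPH, the last enzyme of that branch, did not pass (-0.01, edgeR adjusted p = 0.909), but was called lower with scaling to reference genes (-0.31). TKFC, a triokinase, and GPD1L, which reduces dihydroxyacetone phosphate, were lower (-0.82 and -0.53), although TKFC overlaps DDB1 and CYB561A3 on the opposite strand.

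PGP, a phosphatase of phosphoglycolate and related by-products, had the largest change of the branch list. It went from 5.28 ± 0.745 to 37.2 ± 3.07 CPM (a log2 difference of 2.82 with an SE of 0.11 and an edgeR adjusted p of 1.20e-09). MINPP1, which can remove a phosphate from the product of BPGM, was higher (0.80, SE 0.07, edgeR adjusted p = 6.88e-07). TIGAR, a bisphosphatase of the mutase fold, was lower (-0.40, SE 0.04). Transketolase TKT (0.73) and transaldolase TALDO1 (0.41), enzymes of the pentose phosphate pathway whose reactions involve glyceraldehyde phosphate, were higher. With scaling to reference genes TALDO1 did not pass (0.12, edgeR adjusted p = 0.0768).

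GAPDH and PGK1 are often used to normalise expression assays, so 12 other such reference genes were set beside them. Of these 12, 7 were higher, 4 were lower and 1 did not pass, where 35.4% of all entries tested were higher and 35.8% lower. HPRT1 was among the higher ones, with a log2 fold change of 1.00. The change of GAPDH was exceeded by 3 of the 12, ACTB, HPRT1 and SDHA. When libraries were scaled to the geometric mean of these 12 genes, the median log2 fold change of all entries moved from -0.02 to -0.31, and calls went from 5065 higher and 5130 lower to 3360 higher and 7244 lower. On that scale PGK1 was at 4.30, PGAM1 at 1.65, TPI1 at 1.29 and GAPDH at 0.47, each still past the threshold, and BPGM at 0.08 was not.

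Neighbouring genes on the chromosome were examined next, taking the 3 nearest entries on each side by gene midpoint. PGK1 had a larger change than each of its 5 tested neighbours. Its counts include the introduced copy, so this difference does not describe the chromosomal locus. PGAM4, described above as uncertain, was higher by 2.38. ATP7A, which the annotated span of PGK1 overlaps on the same strand, did not pass (0.16, SE 0.25, edgeR adjusted p = 0.590), and TAF9B (0.22) and COX7B (0.75) were higher by less. RTL3 was higher by 3.26 (SE 0.35), from 0.405 ± 0.191 to 3.92 ± 0.534 CPM, at a distance of 526.77 kb. Among the neighbours of PGAM1, RRP12, whose gene lies 0.08 kb away on the opposite strand, fell by 1.30 (SE 0.04), and in all 2 were higher, 2 lower and 2 did not pass.

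TPI1 and GAPDH lie on the same chromosome arm as ENO2. Of the 6 genes tested around TPI1, 4 were higher (CDCA3 2.73, GNB3 2.39, ENO2 1.78 and USP5 1.27), 1 was lower (LRRC23, -0.43) and SPSB2 did not pass. Of 5 tested around GAPDH, 3 were higher (VAMP1 2.16, NCAPD2 1.33 and MRPL51 0.59), and IFFO1 and NOP2 did not pass. Around BPGM, AKR1B1 was higher (0.29), CALD1 (-0.90) and CYREN (-0.39) were lower and AGBL3 did not pass. Over the 26 neighbours tested, 14 were higher and 5 lower, where 35.4% and 35.8% of all entries were.

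**Figure D4:**
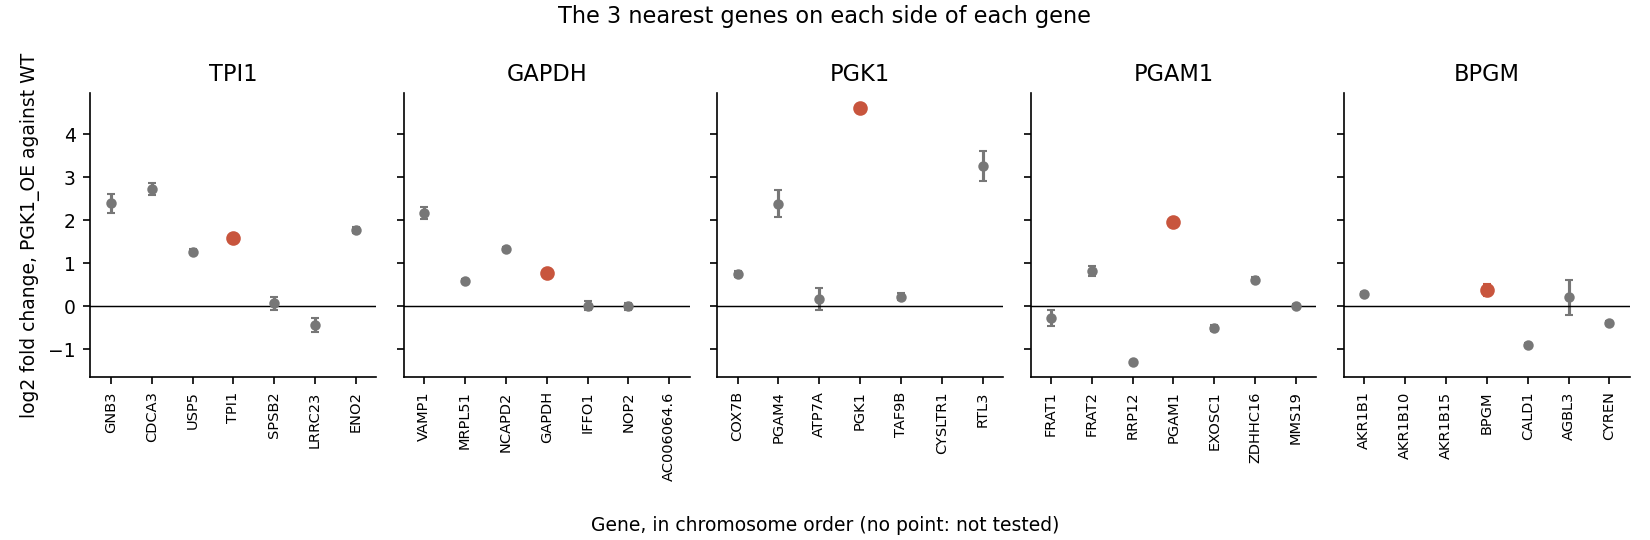
Log2 fold change with standard error for each of the 5 genes (red) and the 3 nearest entries on each side (grey) in chromosome order, not to scale in distance. PGK1, at 4.60 with the introduced copy counted, stands above every tested neighbour, of which RTL3 is the highest at 3.26. TPI1 lies within the range of its neighbours.

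The genes whose profile over the 6 libraries was most like that of each of the 5 were found by the root-mean-square difference of centred log2 CPM, among genes averaging 4 or more on the log2 CPM scale. For PGK1 they were CLSPN (difference 0.109), a mediator of the replication checkpoint, then CDC6 (0.252) and TCF19 (0.265), and CLSPN was the only gene within 0.2. CLSPN had a log2 fold change of 4.61, against 4.60 for PGK1. The PGK1 counts include the introduced copy, so this likeness does not describe the endogenous PGK1 gene, and a link between these genes was not tested. For PGAM1 they were the actin bundler FSCN1 (0.0163), the transferrin receptor TFRC (0.0341) and TACC3 (0.0417). TPI1 was nearest to AURKA (0.0303), GNAI2 and LASP1. GAPDH was nearest to ANP32A (0.00932), GALNT1 and MSN, and BPGM to TBL3 (0.0438), KLF16 and PDGFC. Within 0.2 there were 217 genes for PGAM1, 369 for TPI1, 1732 for GAPDH and 2574 for BPGM, so a likeness over 6 libraries in 2 groups is common for changes of modest size.

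Facts of the libraries bear on all of these values. Depth was between 34425162 and 40538274 counts per library. Mesenchymal markers fitting a fibrosarcoma line, such as VIM and FN1, were abundant in both groups, and their summed level was 3598 to 4106 CPM in WT and 6474 to 6667 CPM in PGK1_OE. EPCAM and PTPRC, which mark epithelial and blood cells, had 0 counts in every library. The summed level of 3 epithelial markers was 2.62 to 3.14 CPM in WT and 0.00 to 0.150 CPM in PGK1_OE. It was 4.05 to 5.28 and 10.1 to 13.3 CPM for 3 endothelial markers, of which PECAM1 alone was higher in PGK1_OE (3.15 against 10.3 CPM on average), while VWF (1.39 against 0.853) and CDH5 (0.279 against 0.0504) were not. The sums were 0.369 to 0.566 and 1.08 to 2.10 CPM for 3 blood markers, and 2.49 to 3.48 and 4.62 to 4.90 CPM for 2 melanocytic ones. The part of these differences in the results was not tested. Together the 5 genes took 0.379% to 0.430% of counts in WT and 1.88% to 1.99% in PGK1_OE, and without PGK1 the other 4 took 0.324% to 0.378% and 0.665% to 0.679%.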

How the data were processed

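PolyA RNA of 6 HT1080 libraries, 3 WT and 3 PGK1_OE, was sequenced. Groups and replicate numbers come from the sample titles, and columns were matched through the sample descriptions. The submitters' processing notes name fastp, HISAT and build hg38. Their versions, the read counter, its strand setting and the annotation were not stated. The deposited counts are raw whole numbers per gene, and the deposited FPKM values are normalised by the authors for length and library size. The test on counts was edgeR 4.0.16 in R 4.3.3 (filterByExpr, TMM, robust quasi-likelihood, group as the only term), two-sided, with Benjamini-Hochberg adjustment over 14322 entries and a threshold of 0.05. Each SE was derived from the estimate and its F statistic, as estimate over root F. No replicate pair was a duplicate: chi-square over its degrees of freedom was 7.67 to 14.6. Coordinates, overlaps and transcripts come from GENCODE 29 (GRCh38, that is, hg38). Sequences before a RefSeq start on GRCh38.p14 were matched by symbol for all 5 genes. On simulated counts of 14166 genes for PGK1_OE against WT, edgeR recovered 91.8% of log2 changes of 1 and 100% of changes of 2. Of its calls 5.58% were false. That simulation gave every gene the same dispersion and changed a small share of genes, as many up as down. It gave 197 calls, whereas 71.2% of entries were called in the data, so its rates need not hold there.

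The 5 genes, the gene lists and the rule for named genes (the 5, the lists, the 3 nearest genes on each side and the 3 most alike profiles per gene) were chosen with earlier results of these data known. Alternatives used DESeq2 1.42.0, limma 3.58.1 and the settings given in the closing section.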

Additional observations from a re-analysis of the deposited data

How the results depend on the processing

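PGK1, GAPDH, PGAM1 and TPI1 kept their direction and their side of the threshold under each of 21 alternatives, with log2 fold changes of 4.30 to 4.63, 0.47 to 0.82, 1.65 to 1.99 and 1.29 to 1.63. These were other scalings (RLE, library totals, 12 reference genes, PGK1 left out), other filters (none, or a CPM of at least 1 in 3 libraries), DESeq2, limma-voom, limma on log2(FPKM + 1) with and without a filter at an FPKM of 1 and on log2(FPKM + 0.1), the replicate number as a block, each library left out, and an adjusted p under 0.01. Leaving out assembled MSTRG entries and adding PGAM4 counts to PGAM1 were chosen after seeing the data. BPGM kept its direction but was not past the threshold with library totals (log2 fold change 0.33, adjusted p = 0.0546), with reference-gene scaling (0.0797, 0.627), with the replicate block (0.38, 0.0524) or at an adjusted p under 0.01 (0.38, 0.0303). Without 1 library its value ranged from 0.32 to 0.45, and 4 of the 6 such fits were not past it. The cause was not tested.

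Replicate numbers did not pair the libraries: same-numbered WT and PGK1_OE deviations correlated at -0.0134, -0.0129 and 0.0952, and only replicate 3 correlated best with its own number. The replicate block gave 9943 changed entries against 10195. The number of entries changed ranged from 8831 to 10604, and glycolysis genes higher from 10 to 11 and lower from 6 to 8. The 5 FPKM ratios kept their direction with (FPKM + 1), raw counts, each library left out and a paired permutation of replicate numbers. Among the 5 genes BPGM had the fewest counts, 193 to 278 per library, and the largest SE, 0.14.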
